A study of Mus musculus with 4 samples.

Results

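The G2/M-high cells were chosen by their own transcript counts, as the 15% of the cells of each library with the largest share of transcripts from 14 genes of G2 phase and mitosis (Top2a, Cdk1, Ccnb1, Ccnb2, Ube2c, Cenpf, Cenpe, Birc5, Tpx2, Aurka, Bub1, Kif11, Hmmr and Nusap1). A unique molecular identifier (UMI) marks 1 captured transcript, and the share was the summed UMIs of these 14 genes over all UMIs of the cell. Of 41142 cell barcodes in the count matrix, 31989 passed the filters on UMIs, detected genes and mitochondrial share, and 4799 of these were G2/M-high, with 1218, 1277, 1184 and 1120 cells in libraries 1 to 4. They were compared, within each library, with the 50% of cells of lowest share, 15994 cells in all, here called the lowest 50%. The 11196 cells between these classes entered neither.

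The cells came from mouse embryonic stem cells of the line E14tg2a.4, profiled as 2 wild-type (WT) samples and 2 samples of an Srrm2 heterozygous knockout (hKO). The hKO line is the single gene-trap line CG0630, in which a trap sits in the first exon of 1 copy of Srrm2, the gene of a serine- and arginine-rich scaffold protein of nuclear speckles. All samples were grown with leukaemia inhibitory factor (LIF) in serum-free medium, for 24 h or 72 h per the labels, which give no time for single samples, and for 48 h per the methods for these libraries, and their transcripts were captured at the 3′ end in droplets. Library numbers 1 to 4, carried by the cell barcodes, cannot be matched to the labels, so WT and hKO were not compared and values are given library by library. Srrm2 itself was at 387, 533, 238 and 356 CPM (UMIs per 1000000 UMIs) over the kept cells of libraries 1 to 4, and these levels were not used to assign a genotype.

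A dividing cell copies its DNA in S phase, grows through G2 and divides in mitosis (M). The kinase Cdk1 with B-type cyclins drives entry into mitosis, the spindle assembly checkpoint holds the cell until every chromosome is attached, and the anaphase-promoting complex with Cdc20 and then Cdh1 marks cyclins and other proteins for destruction. Many genes of this programme are transcribed mostly in G2 and M, through promoter elements named the cell cycle genes homology region (CHR) and the CCAAT box, whereas S phase genes often carry E2F sites. Embryonic stem cells are known for a short G1 phase, so that much of a culture is in S or G2.

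The kept cells held 166839268, 200180473, 172407338 and 174050451 UMIs. Levels are CPM of the summed cells of a class, and fold changes are given as log2 of the level in G2/M-high cells over that in the lowest 50%. A gene was called higher or lower where its level was 1.5-fold or more above, or below, that of the lowest 50% in each of the 4 libraries and it had at least 200 UMIs over both classes in every library. This is a rule of size and not a test, since the libraries are not replicates of a known group, and intervals cover counting error only. The libraries shared 160 barcode sequences, and 41 of the 4799 G2/M-high cells had a barcode also seen in another library. Library 3 stood apart: the tenth of its cells with the smallest rule share held 8635 CPM of keratin and serum response factor (SRF) target genes, against 757, 734 and 1882 CPM in libraries 1, 2 and 4.

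The 14 rule genes together were at 6145, 5298, 5549 and 4802 CPM in the G2/M-high cells and at 1939, 2426, 1894 and 2132 CPM in the lowest 50%. This difference was fixed by the choice of cells and is given as a description only. The last G2/M-high cell and the first cell outside had shares of 0.512% and 0.512% in library 1, 0.462% and 0.462% in libraries 2 and 3, and 0.414% and 0.414% in library 4. The shares ran without a gap across this limit and reached 1.33%, 0.879%, 1.07% and 0.969%. The 100 cells just inside and just outside held 19168 and 19085 CPM of other mitotic genes in library 1, and 16578 and 16926 CPM in library 4. The limit was set by rank, so near-equal values beside it do not show whether the cells form separate groups.

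Of the 3 marker genes, Cenpf, which encodes a kinetochore and nuclear matrix protein that accumulates in G2, was at 763, 635, 655 and 594 CPM in the G2/M-high cells and at 133, 195, 141 and 182 CPM in the lowest 50%. Ccnb1, the gene of cyclin B1, was at 351, 371, 351 and 352 CPM against 132, 202, 140 and 178. Top2a, the gene of the topoisomerase that untangles sister chromatids, was at 1083, 1107, 955 and 1018 CPM against 411, 476, 358 and 415. The levels of Ccnb1 and Top2a in the G2/M-high cells were close between libraries, and those in the lowest 50% were highest in libraries 2 and 4.

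The rule genes did not contribute alike. Ordered by the library where the fold was smallest, Cenpf came first (log2 fold changes of 2.52, 1.70, 2.21 and 1.71), followed by the spindle gene Nusap1 (2.38, 1.67, 2.20 and 1.65) and by Cenpe (1.62, 1.41, 1.69 and 1.49), the gene of a kinetochore motor. Ube2c, the gene of the ubiquitin-conjugating enzyme of the anaphase-promoting complex, supplied 22.2%, 18.9%, 21.9% and 16.5% of the rule UMIs of the G2/M-high cells, and Top2a 17.6%, 20.9%, 17.2% and 21.2%. The log2 fold changes of Hmmr, Aurka, Tpx2, Kif11 and Cdk1 lay between 0.98 and 2.07. The checkpoint kinase gene Bub1 (0.81, 0.50, 0.88 and 0.53), the cyclin B2 gene Ccnb2 (0.82, 0.30, 0.69 and 0.39) and Birc5 (0.61, 0.23, 0.60 and 0.27), the gene of survivin, did not reach 1.5-fold in every library although the rule summed them. The UMIs of each cell were also split at random, with the classes set on 1 part and the levels read on the other. On the part read, the summed rule genes differed by log2 fold changes of 1.54, 0.97, 1.42 and 1.01. On the part that set the classes they differed by 1.71, 1.17, 1.59 and 1.22. The same genes were read in the same cells, so this takes out counting noise only and lends the class no support.

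**Figure D1:**
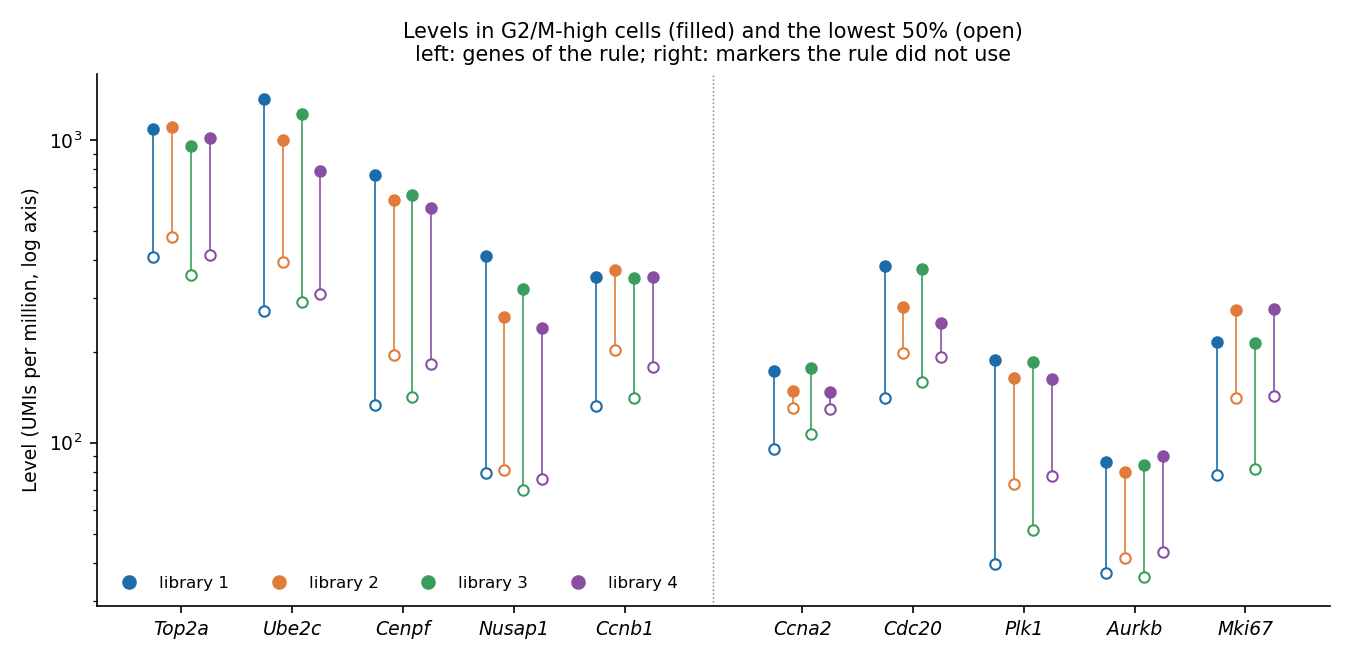
Levels (CPM, log axis) of rule genes and of 5 mitotic markers outside the rule, in G2/M-high cells (filled points) and the lowest 50% (open points) of each of the 4 libraries. Plk1 lies between 162 and 187 in the G2/M-high cells and between 39.7 and 77.6 in the lowest 50%, whereas the points of Ccna2 lie close together in libraries 2 and 4.

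To show the elements named above in their context, the promoter sequences of 3 rule genes, of 2 mitotic genes that the rule did not use and, for contrast, of the S gene Mcm6 are shown (RefSeq, GRCm38.p6, the build mm10). Each is a stretch of 110 bases of the coding strand upstream of the annotated start, 5′ to 3′, ending between 1 and 27 bases before it and holding no annotated exon. Capitals mark, on either strand, the CHR letters TTTGAA, the CCAAT box (ATTGG when reversed) and the E2F letters TTTCGCGC and TTTGGCGC, and in Mcm6 both E2F motifs share letters.
Top2a, chr11:99024190-99024299, minus strand: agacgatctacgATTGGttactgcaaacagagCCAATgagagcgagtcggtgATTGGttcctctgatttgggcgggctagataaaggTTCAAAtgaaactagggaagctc
Cdk1, chr10:69352939-69353048, minus strand: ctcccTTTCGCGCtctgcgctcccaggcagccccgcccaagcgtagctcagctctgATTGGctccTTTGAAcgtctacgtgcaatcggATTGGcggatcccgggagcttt
Kif11, chr19:37376272-37376381, plus strand: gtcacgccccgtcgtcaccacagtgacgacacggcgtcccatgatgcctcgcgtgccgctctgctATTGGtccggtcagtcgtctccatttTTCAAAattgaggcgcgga
Cdc20, chr4:118437353-118437462, minus strand: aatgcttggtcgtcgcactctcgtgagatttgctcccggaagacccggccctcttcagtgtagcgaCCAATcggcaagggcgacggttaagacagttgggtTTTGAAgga
Kpna2, chr11:106999542-106999651, minus strand: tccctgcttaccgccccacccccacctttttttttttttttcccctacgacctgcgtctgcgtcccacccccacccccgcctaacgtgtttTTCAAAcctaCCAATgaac
Mcm6, chr1:128359716-128359825, minus strand: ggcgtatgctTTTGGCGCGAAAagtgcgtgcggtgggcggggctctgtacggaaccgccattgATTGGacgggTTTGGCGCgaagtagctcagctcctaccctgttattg

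The search ran on both strands over windows of 300 bases (250 before the start and 50 after) for all 32851 promoters. TTTGAA was present in 17.9% of all promoters, in 8 of 13 windows of rule genes (61.5%) and in 55 of 96 windows of the other mitotic genes listed (57.3%). CCAAT was present in 37.4% of all promoters, in 84.6% of the rule gene windows and in 69.8% of the mitotic ones. Both stood together in 6.95% of all promoters and in 61.5% of the rule gene windows. Among the mitotic list genes called higher, 26 of 34 windows (76.5%) held TTTGAA, against 49.4% for all higher genes without the rule genes and 32.7% for the higher genes on no list. In 13 windows of S genes TTTGAA was in 7.69%, CCAAT in 76.9%, close to the mitotic shares, TTTGGCGC in 30.8% against 0.514% of all promoters, and TTTCGCGC in 23.1% against 0.323%. The promoter table covered 13 of 14 rule genes, 85 of the other mitotic genes and 12 of 14 S genes. The lower genes were matched for 14 of 28 only, and the tested genes for 8172 of 10266, both under 80%, so the check is void for them. The matched windows of tested genes held TTTGAA in 11.8%, TTTGGCGC in 1.04% and TTTCGCGC in 0.700%. A match is a stretch of letters and not a measured site.

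Over all 10266 genes with enough UMIs, 101 were higher in the G2/M-high cells in every library, 0.984% of those tested, and 28 were lower, 0.273%. The 101 comprised 11 rule genes, 37 other mitotic genes on the lists and 53 genes on no list. The median log2 fold change over all tested genes was 0.03, which the division by each class's own total holds near 0, and with median-of-ratios scaling 87 genes were higher and 34 lower. Of the 5 mitotic markers set beside the rule, the largest difference was that of Plk1, the kinase of centrosome maturation and mitotic entry (chromosome 7, 122159439 to 122169873, plus strand). Plk1 was at 187, 163, 185 and 162 CPM in the G2/M-high cells and at 39.7, 73.1, 51.6 and 77.6 in the lowest 50%. The lowest value of the G2/M-high cells thus lay above the highest of the lowest 50%, and the log2 fold change ran from 1.06 in library 4 (95% interval 1.01 to 1.12) to 2.23 in library 1 (2.17 to 2.30).

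Aurkb, the kinase that corrects chromosome attachment, was at 86.2, 80.0, 84.5 and 90.4 CPM against 37.0, 41.6, 36.1 and 43.5, and was called higher. Mki67, which encodes the Ki-67 coat of mitotic chromosomes, was at 215, 275, 214 and 276 CPM against 78.0, 140, 81.6 and 143, and was called higher as well. The other 2 markers fixed for the class did not meet the rule of size: Cdc20, the activator of the anaphase-promoting complex, had log2 fold changes of 1.44, 0.51, 1.24 and 0.37, and Ccna2, the gene of cyclin A2, which is transcribed from S phase on, 0.85, 0.19, 0.71 and 0.18. Of the 5 markers outside the rule, 3 were thus called higher and all 5 lay above 0 in every library. The differences of Cdc20 and Ccna2 were smaller in libraries 2 and 4. The markers were chosen with earlier results of these data known, so they describe the class and are no independent support for its name.

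With each cell thinned to 5000 UMIs, a depth that every kept cell reached, Plk1 was seen in 60.8%, 55.5%, 58.5% and 53.4% of the G2/M-high cells and in 15.6%, 29.7%, 20.1% and 30.2% of the lowest 50%. Unthinned, the Plk1 shares in library 1 were 97.1% and 42.9%, at median depths of 22374 and 16392 UMIs. Thinned, Cdc20 was seen in 84.5%, 75.2%, 84.0% and 69.0% of the G2/M-high cells, against 44.7%, 61.3%, 49.2% and 58.0%. Ccna2 was seen in 56.9%, 52.4%, 55.1% and 51.2%, against 36.5%, 47.1%, 39.6% and 47.9%. No class of cells that should lack Plk1 was at hand, so the part of free RNA in these shares was not measured.

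The 6 lists of mitotic genes differed in how fully they moved, and 0.984% of all tested genes were called higher. Of the 30 spindle and cytokinesis genes, 20 were called higher and all 30 lay above 0 in every library, with a median log2 fold change of 0.90 against 0.03 over all tested genes. Against all other cells the calls of Kif14, Ckap5, Ect2, Kif2c, Ckap2, Anln, Kif23, Spag5, Racgap1, Kifc1 and Kif20b were lost. Those of Racgap1 and Kifc1 were also lost in several other settings. Kpna2 (importin alpha 1, which holds spindle assembly factors inactive) was at 60.9, 85.2, 77.0 and 101 CPM against 18, 32.9, 24.9 and 39.3. Prc1, the gene of the bundler of the spindle midzone, was at 322, 275, 300 and 309 CPM against 89.7, 113, 88.8 and 120. Both genes were thus more than 2-fold higher in every library. Aspm, the gene of a spindle pole protein, had log2 fold changes of 1.76, 1.30, 1.73 and 1.42, Ckap2l 1.63, 1.10, 1.56 and 1.09, and Arhgap11a 1.41, 1.03, 1.29 and 1.01. Tubb4b, a beta-tubulin gene with the most UMIs on this list, was at 1098, 934, 1052 and 825 CPM against 551, 728, 590 and 696 and did not meet the rule of size.

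Beside the 0.984% called higher over all tested genes, 5 of the 14 mitotic kinase and checkpoint genes were called higher. Their list had a median log2 fold change of 0.78. Besides Plk1 and Aurkb the 5 called genes were Cdc25b (2.08, 1.04, 1.61 and 0.76) and Cdc25c (1.58, 0.64, 1.38 and 0.69), the phosphatase genes that release Cdk1, and Bub3, a checkpoint gene. The call of Cdc25c was lost with the highest 20%, against all other cells and with cells scored at 5000 UMIs. Those of Cdc25b and Bub3 were lost against all other cells. Bub3 was at 240, 195, 235 and 190 CPM against 94.6, 114, 113 and 115. The checkpoint kinase gene Bub1b (1.08, 0.57, 1.06 and 0.57) fell just short in libraries 2 and 4. Wee1, the kinase that opposes Cdc25 enzymes, had log2 fold changes of 0.49, 0.30, 0.39 and 0.33. Among 6 cyclin and Cdk partner genes 1 was called, Ccnf (cyclin F), at 172, 144, 164 and 136 CPM against 50.5, 75, 55.1 and 64.4, whereas Cdk4 differed by −0.04, −0.04, −0.01 and −0.09 and Cks2 by 0.92, 0.40, 0.86 and 0.42.

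In the list of 10 genes of the mitotic ubiquitin ligase and separase, 1 gene was called higher, against 0.984% of all tested genes. This was Fzr1, which encodes Cdh1, the activator that follows Cdc20 at the end of mitosis (chromosome 10, 81366222 to 81378516, minus strand). Fzr1 was at 81.3, 82.1, 77.5 and 70.6 CPM in the G2/M-high cells and at 32.6, 35.6, 32.3 and 31.7 in the lowest 50%. Its levels varied little between libraries in either class, and its log2 fold changes of 1.32, 1.21, 1.26 and 1.16 were among the most even of the mitotic genes named. In the same list, Pttg1 (securin, the separase inhibitor) had 1.17, 0.21, 0.93 and 0.13, and Ube2s, with the most UMIs, 0.65, 0.19, 0.55 and 0.16.

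Kinetochore and centromere genes were higher for 6 of 24, against 0.984% of all tested genes, with a median of 0.54. Cdca2, which targets a phosphatase to chromatin, had log2 fold changes of 1.54, 0.96, 1.46 and 1.12. Incenp, the scaffold of the Aurora B complex, was at 251, 243, 238 and 236 CPM against 97.9, 127, 95.1 and 119. Cenpa, the centromeric histone H3, was at 361, 302, 337 and 279 CPM against 122, 193, 142 and 186, and its log2 fold change of 0.58 in library 4 lay just under the limit. Condensin and mitotic chromatin genes were higher for 4 of 18, with a median of 0.23. These were Mki67, the condensin genes Smc4 (0.93, 0.83, 0.96 and 0.94) and Ncaph (0.82, 0.66, 0.95 and 0.67), and H2afx, the histone H2A.X gene, at 1146, 556, 937 and 410 CPM against 632, 332, 494 and 248. Within bands of similar UMIs the calls of Ncaph and H2afx were lost, and against all other cells those of Smc4, Ncaph and H2afx. H2afz, the histone H2A.Z gene with the most UMIs on that list, differed by 0.01, −0.15, 0.03 and −0.18.

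No gene was called in either direction among 10 cohesin genes, of which Rad21 had 0.53, 0.36, 0.57 and 0.36. Of these 10 genes 7 lay above 0 in every library, and the share of all tested genes that did so was not counted. At the limit of 1.5-fold, 0.984% of all tested genes were called higher and 0.273% lower. Likewise, no gene was called among 11 genes of the MuvB complex, FoxM1, B-Myb and NF-Y, the factors known to bind CHR and CCAAT elements. Foxm1 was at 14.4, 16.7, 16.7 and 16.8 CPM against 9.26, 12.2, 10.5 and 13.8, and Mybl2 at 352, 338, 330 and 264 against 318, 306, 278 and 226.

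**Figure D2:**
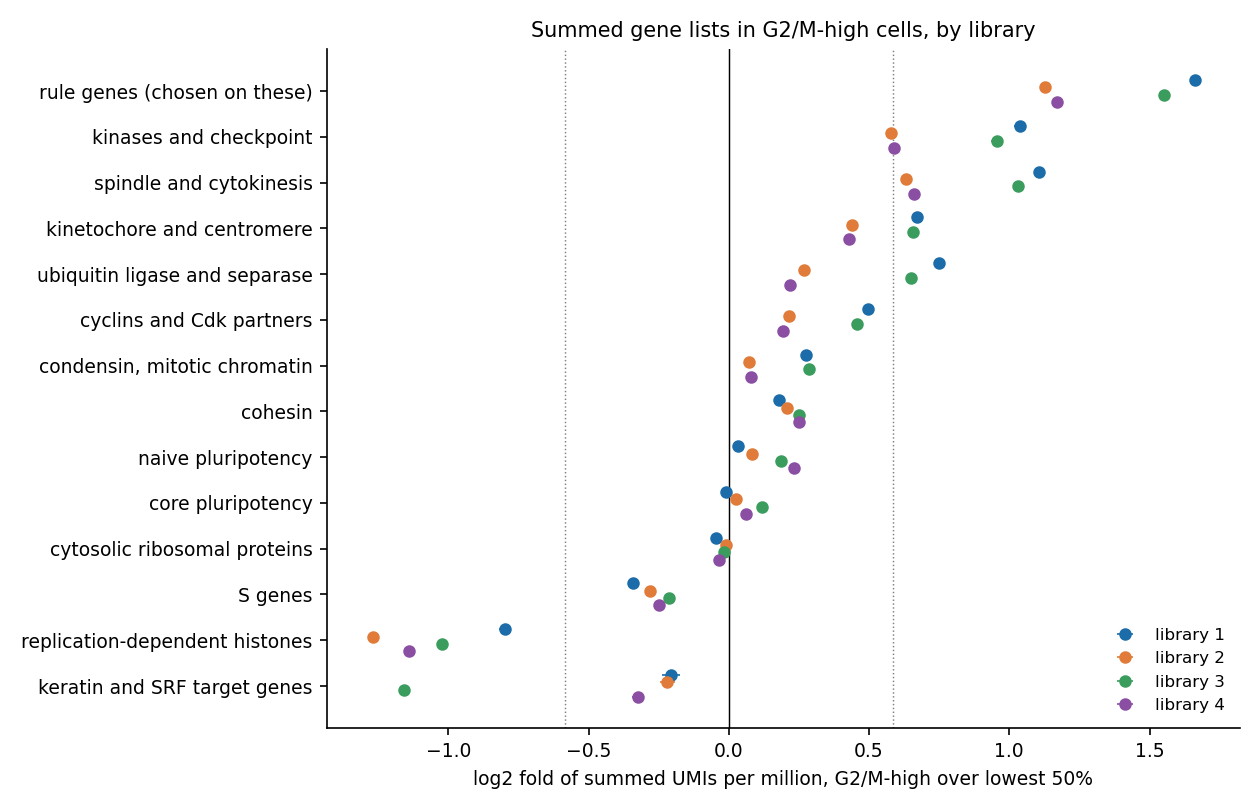
Log2 fold change of summed gene lists, G2/M-high cells over the lowest 50%, 1 point per library. The rule genes (1.13 to 1.66) were fixed by the choice of cells, the spindle genes reach 0.63 to 1.11, and the replication-dependent histones lie between −1.27 and −0.80.

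In each of the 6 mitotic lists the summed difference was larger in libraries 1 and 3 than in libraries 2 and 4. Summed over the other mitotic genes of the lists, levels were 20054, 18180, 19445 and 17261 CPM in the G2/M-high cells and 13498, 15009, 13364 and 14255 in the lowest 50%, with log2 fold changes of 0.57, 0.28, 0.54 and 0.28. The G2/M-high cells of libraries 1 and 3 were above those of 2 and 4, and their lowest 50% were below. Libraries 1 and 3 also had lower median depths of G2/M-high cells (22374 and 23157 UMIs, against 26509 and 25974) and less Dnmt3b, a DNA methyltransferase gene of the formative state, in the kept cells (79.5 and 146 CPM, against 393 and 586). The part of these in the difference was not tested, and whether it follows genotype cannot be told from the labels.

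Across 10 equal steps of rising rule share, Plk1 increased: in library 1 it was at 18.5 CPM in step 1, 35.1 in step 3, 62.7 in step 5 and 198 in step 10, and in library 4 at 44.1, 76.8, 100 and 168. Library 4 thus started higher and ended lower. The S genes peaked in step 2 in library 1 (2627 CPM) and in step 3 in libraries 2 to 4 (2903, 2509 and 2919 CPM), and were at 2000.5, 2293, 2022 and 2305 CPM in step 10. Replication-dependent histones also peaked in steps 2 or 3. In steps 1, 3, 5 and 10 they were at 1323, 1578, 1446 and 833 CPM in library 1 and 3684, 3948, 3504 and 1654 in library 4.

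**Figure D3:**
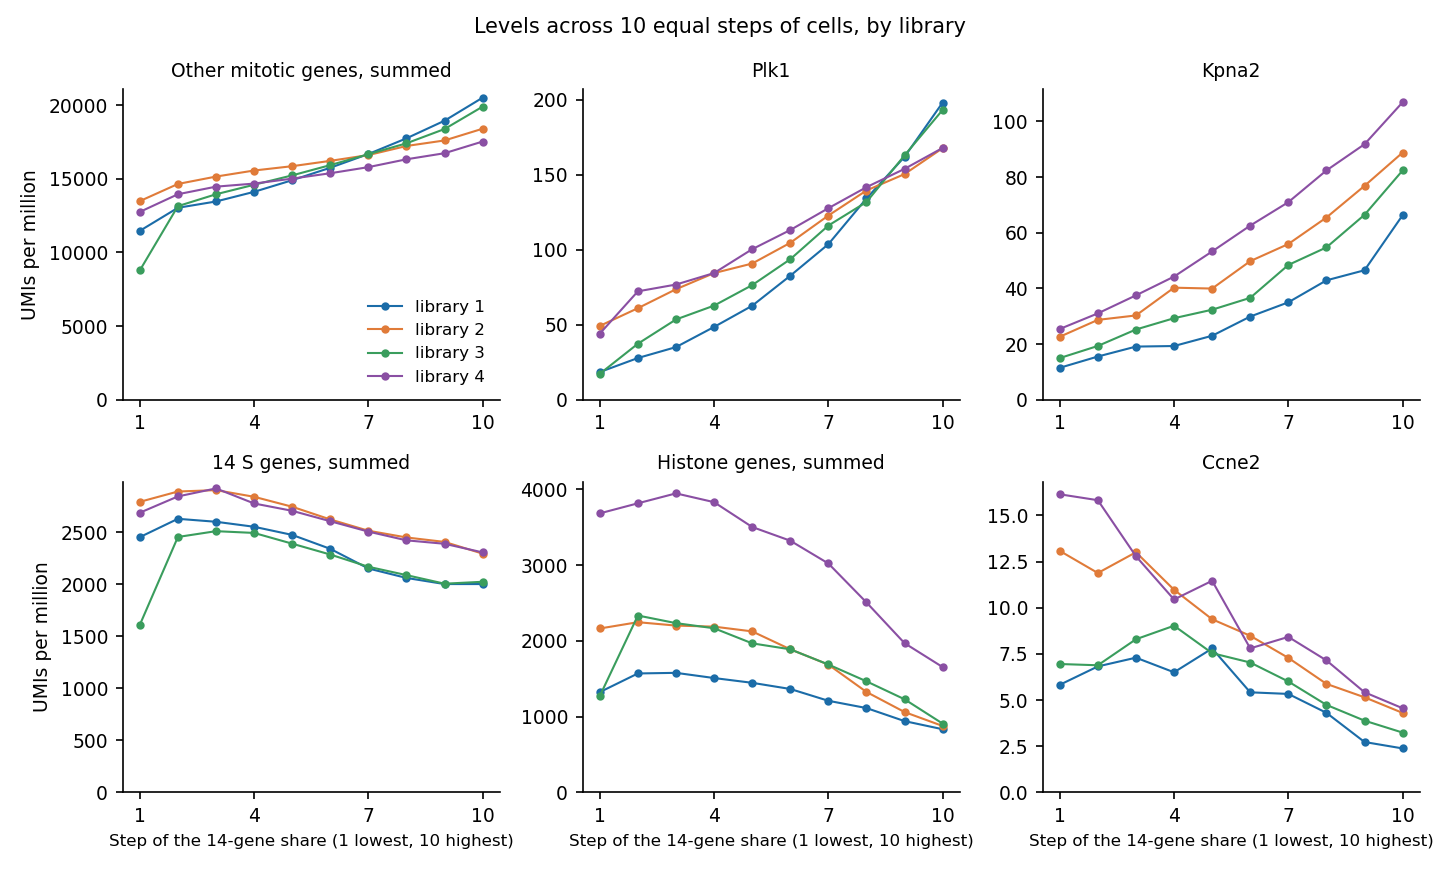
Levels (CPM) of gene lists and genes across 10 equal steps of cells ordered by the share of rule genes, 1 line per library. Plk1 climbs from 18.5 to 198 in library 1 and from 44.1 to 168 in library 4, and the histones of library 4 drop from 3948 in step 3 to 1654 in step 10.

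The genes of DNA replication went the other way. All 14 S genes lay below 0 in every library, although 2 only, Slbp and Cdc6, were called lower, against 0.273% of all tested genes. Both calls were lost against all other cells, without the 2 rule genes of most UMIs and within bands of similar UMIs. The call of Cdc6 was also lost with rule genes weighted equally and with cells scored at 5000 UMIs. The sum of the 14 S genes was 2008, 2333, 1999 and 2343 CPM in the G2/M-high cells and 2542, 2832, 2317 and 2785 in the lowest 50%. Slbp, the gene of the protein that binds the stem-loop of histone mRNA, was at 84.7, 91.9, 89.1 and 104 CPM against 150, 174, 146 and 182. Cdc6, a loader of the replicative helicase, had log2 fold changes of −0.95, −0.68, −0.65 and −0.71, and Hells, which had the most UMIs, −0.12, −0.12, −0.06 and −0.09. Of 25 other replication genes 2 were called lower. Ccne2, the cyclin E2 gene of the entry into S phase, was at 2.37, 4.55, 3.41 and 4.5 CPM against 6.90, 11.6, 7.79 and 13.1, more than 2-fold lower in every library. Ung, a uracil glycosylase gene, was at 56.7, 68.9, 46.6 and 52.8 CPM against 127, 110, 92.5 and 94.4.

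Replication-dependent histone mRNAs are made in S phase and mostly lack a poly(A) tail, so that 3′ capture reads them in part. Of 31 such genes tested 7 were called lower, against 0.273% of all tested genes, and none was called higher. Within bands of similar UMIs 4 of these 7 were kept, with Hist1h4i, Hist1h2ae and Hist1h1e lost, and the latter 2 were also lost with cells scored at 5000 UMIs. The summed 67 genes were at 857, 908, 993 and 1703 CPM against 1490, 2185, 2018 and 3751. Hist1h2ap, with the most UMIs, was at 250, 338, 436 and 922 CPM against 570, 1037, 1123 and 2365, and Hist1h1b at 235, 193, 186 and 192 against 434, 460, 370 and 415. Histone genes are near-identical copies, and the split of reads between single members is uncertain.

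To place the class against S phase directly, the 15% of cells with the highest share of the 14 S genes were taken in each library. Of the G2/M-high cells, 23, 42, 39 and 55 were also S-high, which is 1.89%, 3.29%, 3.29% and 4.91%, against 24.2%, 22.6%, 22.4% and 21.2% of the lowest 50%. Exact binomial 95% intervals were 1.20% to 2.82% in library 1 and 3.72% to 6.34% in library 4. For levels, the G2/M-high cells that were also S-high were left out, which widens the differences. Relative to the S-high cells, the other G2/M-high cells had Plk1 log2 fold changes of 2.11, 1.04, 1.5 and 0.93. Those of Fzr1 were 1.42, 1.34, 1.34 and 1.28, of histones −0.92, −1.25, −1.19 and −1.14 and of Ccne2 −2.10, −1.99, −1.73 and −2.08. Ccna2 differed by 0.67, 0.02, 0.37 and −0.00 between these classes. Both shares have the same total UMIs as denominator, and the S-high cells were shallower, with medians of 16469 to 19911 UMIs.

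**Figure D4:**
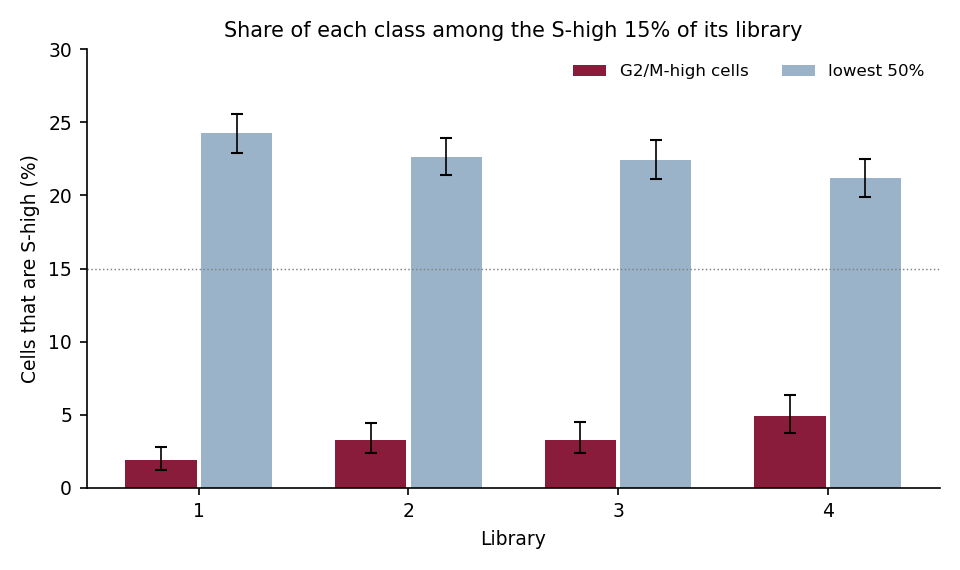
Share of each class (percent of its cells, with exact binomial 95% intervals) that was also among the S-high 15% of its library. G2/M-high cells lie at 1.89% to 4.91% and the lowest 50% at 21.2% to 24.2%.

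Within the G2/M-high cells, the third of highest S gene share and the third of lowest (373 to 425 cells each per library) were compared. The summed rule genes differed by −0.02, −0.05, −0.00 and −0.06, which the choice of all these cells for a high rule share largely fixes, and the other mitotic genes by 0.01, 0.04, 0.04 and 0.03, with histones at −0.21, −0.26, −0.18 and −0.13 and the 25 other replication genes at 0.18, 0.32, 0.34 and 0.35. The third of highest S share was deeper in every library, with median UMIs of 24129, 28319, 24418 and 27473 against 20483, 24689, 21928 and 24401, and the part of depth in these differences was not tested. Of 6562 genes tested 12 were higher in the third of highest S share, 0.183%, of which 11 were S genes themselves and followed from the choice of cells. The remaining gene was Ttn (0.67, 0.96, 0.74 and 1.27). Lower were 5 genes, 0.0762% of those tested: Krt8, Krt18, Cald1, S100a6 and Sdc4, with Krt8 at −3.96, −1.97, −3.76 and −3.35. The whole keratin and SRF target list differed by −0.78, 0.04, −2.09 and −0.98, so it was not lower in library 2, the p53 targets by −0.19, −0.68, −0.41 and −0.56, and the primitive endoderm genes by −0.11, −0.09, −1.69 and −1.64. The 5 genes encode epithelial keratins, an actin-binding protein, a calcium-binding protein and a cell surface proteoglycan. Each of these genes was named after its values were seen.

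The G2/M-high cells were also deeper. Their median UMIs of 22374, 26509, 23157 and 25974 were 1.36, 1.35, 1.34 and 1.36 times those of the lowest 50%, and detected genes were 1.20, 1.17, 1.18 and 1.18 times as many. Mitochondrial shares were nearly equal, at 5.38%, 4.25%, 4.55% and 3.54% against 5.41%, 4.07%, 4.52% and 3.48%. Cells above 2 times the median UMIs of their library, among which doublets could fall, made up 5.25%, 3.13%, 4.48% and 3.21% of the G2/M-high cells and 2.46%, 2.18%, 5.09% and 3.62% of the lowest 50%. With classes taken within bands of similar UMIs the depth ratio was 1.02, and 88 genes were higher and 26 lower, of which 81 and 15 were among the 101 and 28. The summed sizes moved little: the median log2 fold change was 0.36 for the other mitotic genes, against 0.41, and −0.24 for the S genes, against −0.26. Some lower genes fell under the limit in at least 1 library, among them Slbp (−0.70 to −0.58), Cdc6 (−0.85 to −0.56), Ung (−0.97 to −0.55) and Tcf19 (−1.26 to −0.47).

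Outside every list, the 10 higher genes with the largest fold in the library where it was smallest were Hyls1, Gm10184, Fam83d, Arhgef39, Prr11, Depdc1a, Arl6ip1, Parpbp, Depdc1b and Pif1. Hyls1, a centriole gene, was at 29.0, 18.4, 27.0 and 19.1 CPM against 5.10, 6.92, 6.18 and 6.91. Fam83d, which recruits casein kinase to the spindle, was at 41.3, 27.3, 36.9 and 25.8 against 7.81, 10.0, 8.20 and 10.0. Arl6ip1, a gene of endoplasmic reticulum shaping, had the most UMIs, at 775, 456, 712 and 425 CPM against 211, 204, 234 and 199. Depdc1a (1.95, 1.14, 1.84 and 1.12), Depdc1b (1.13, 0.99, 1.39 and 1.11), Prr11 (2.30, 1.39, 1.86 and 1.18) and the helicase gene Pif1 (1.96, 0.99, 1.65 and 1.09) were all near or above 2-fold. Gm10184 had log2 fold changes of 1.98, 1.41, 1.71 and 1.48, much like Kpna2. Of the 1958 words of 31 bases in its annotated transcripts 1876 (95.8%) also occur in those of Kpna2, so the reads of these genes may be split between them and the value of Gm10184 is uncertain.

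The 10 genes outside the lists with the largest decreases were Tcf19, Pus3, Hmga2, Tmem158, Camk2n2, Fam111a, C1ql1, Cryab, Fam222a and Rnf227. With rule genes weighted equally the calls of Hmga2, Tmem158, Camk2n2, Fam222a and Rnf227 were lost, and with the score on one part of the UMIs and levels on the other those 5 and the calls of Tcf19, C1ql1 and Cryab. Tcf19, a nuclear factor gene with a late G1 and S phase pattern, was at 2.76, 3.04, 2.60 and 3.03 CPM against 7.12, 6.22, 5.65 and 5.28. Fam111a, whose protein acts at replication forks, was at 16.7, 21.9, 17 and 27.7 against 27.0, 39.1, 29.5 and 47.9. The pseudouridine synthase gene Pus3 was at 7.68, 11.9, 8.82 and 13.2 CPM against 18.8, 21.6, 18.2 and 22.6. Hyls1 (chromosome 9, 35560820 to 35570398, minus strand) and Pus3 (35558595 to 35567401, plus strand) overlap by 6582 bases on opposite strands and were called in opposite directions, the only overlapping pair among the 129 called genes. The reads were counted with default parameters, under which Cell Ranger counts reads in the sense of a gene.

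**Figure D5:**
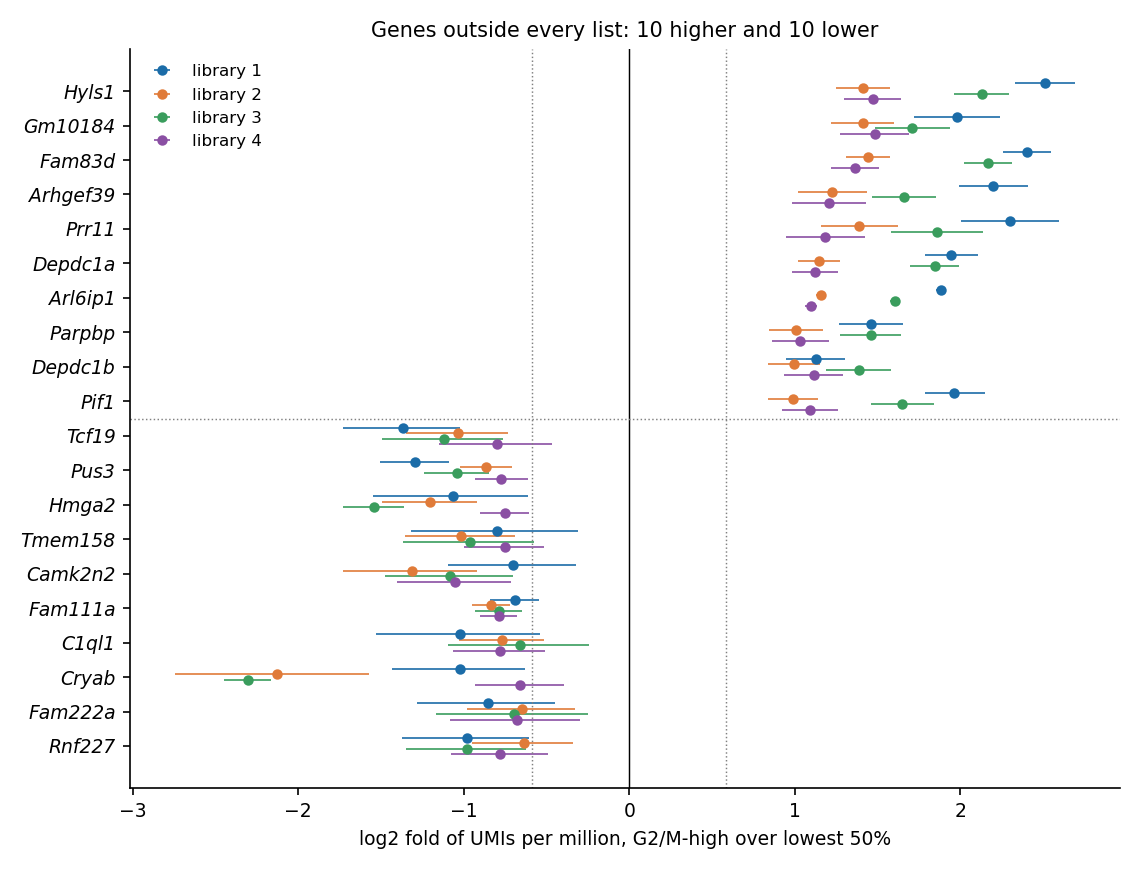
Log2 fold change of the 20 named genes on no list, G2/M-high cells over the lowest 50%, 1 point per library. The higher genes run up to 2.51 for Hyls1 in library 1, and Cryab and Hmga2 show the widest spread among the lower ones.

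Keratin and SRF target genes were lower in part, and 0.273% of all tested genes were called lower. Of 12 tested 2 were called lower, Acta2 (smooth muscle actin), at 0.390, 0.496, 38.2 and 4.5 CPM against 9.56, 5.66, 230 and 25.3, and Tagln (transgelin), at 12.7, 5.63, 134 and 69.4 against 29.9, 20.6, 496 and 137. Library 3 held the highest levels of both genes in both classes. Cells in the highest 10% of this list made up 8.37%, 6.73%, 5.83% and 8.21% of the G2/M-high cells and 10.7%, 10.6%, 14.2% and 10.5% of the lowest 50%. Without these cells Acta2 had a median log2 fold change of −0.49, from −1.24 to 0.60 between libraries. Neither Acta2, Tagln, Hmga2 nor Cryab was then called. Acta2 and Tagln are on the list that chose these cells, so the loss of these 2 calls was largely fixed in advance. Of the calls made with these cells, 20 of the 28 lower calls and 92 of the 101 higher calls were kept.

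Pluripotency genes met the rule of size in neither direction. With 0.984% of all tested genes higher and 0.273% lower, the lack of calls in lists this short says little. Of the 10 naive genes tested, Nr5a2 had 0.44, 0.38, 0.65 and 0.43 and Esrrb 0.13, 0.25, 0.36 and 0.45, whereas Nanog was at 171, 138, 122 and 68.4 CPM against 155, 131, 100 and 60.2 and Klf4 differed by −0.12, −0.07, −0.09 and 0.03. The formative gene Dnmt3b was at 75.1, 362, 137 and 572 CPM against 77.2, 374, 137 and 575, and the core factor Pou5f1 at 840, 774, 673 and 762 against 865, 799, 644 and 769. The levels of Nanog, Dnmt3b and Pou5f1 separated the libraries from each other more than the classes within them. Of 8 formative genes tested, 3 lay above 0 in every library and 2 below. Lef1 had a median log2 fold change of 0.59, from 0.37 to 0.84 between libraries, and Otx2 0.25, from 0.17 to 0.43. Srrm2 was at 399, 556, 250 and 374 CPM in the G2/M-high cells against 380, 516, 229 and 342, log2 fold changes of 0.07, 0.11, 0.13 and 0.13, and none of 5 Srrm2 and speckle genes was called.

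No gene was called among 8 G1 cyclin and Cdk inhibitor genes tested, 7 immediate early genes, 8 p53 targets, 82 cytosolic ribosomal protein genes and 13 mitochondrially encoded genes. Over all tested genes 0.984% were higher and 0.273% lower, so the lack of calls in such lists says little. Of the immediate early genes 6 lay below 0 in every library, and of the p53 targets 5. The share of all tested genes below 0 in every library was not counted. Cdkn1b, the gene of the Cdk inhibitor p27, was at 32.9, 22.4, 28.4 and 23.7 CPM against 24.1, 15, 16.8 and 16.2. Cdkn1a, the p21 gene, had log2 fold changes of 0.00, 0.26, −1.13 and −0.32 and Cdkn1c, the p57 gene, −0.65, −0.34, −1.09 and −0.40. Egr1, an immediate early gene, differed by −0.54, −0.66, −1.42 and −0.91. Of the marker lists for other cells, none of the fibroblast or 2-cell-like genes had enough UMIs to be tested, and 2 genes each of primitive endoderm and trophectoderm did, with no call. Summed, the fibroblast genes were nonetheless lower in the G2/M-high cells of every library, at 1.91, 4.64, 3.62 and 5.21 CPM against 3.03, 5.95, 22.4 and 9.22, with the widest gap in library 3. The 2-cell-like genes, members of the totipotent-like state, were at 0.0354, 0.0876, 0.773 and 0.0341 CPM against 0.386, 0.900, 1.42 and 0.181, from 1, 3, 22 and 1 UMIs in the G2/M-high cells, and the 95% interval of the fold in library 4 spanned 0 on the log2 scale (−7.81 to 0.31). Primitive endoderm genes were at 16.8, 13.1, 17.9 and 22.4 CPM against 10.8, 12.7, 34.9 and 19.1, lower in library 3 only, and trophectoderm genes at 57.8, 61.5, 42.3 and 34.4 against 53.9, 51.9, 41.9 and 34. The part of such cells in the class differences was not tested.

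The number of genes called depended on the libraries more for the lower than for the higher genes. Without library 1, 116 genes were higher and 57 lower, and leaving out library 2, 3 or 4 gave 111 to 127 higher and 34 to 42 lower. With fewer libraries to meet, calls can be added but not lost. With each cell scored at 5000 UMIs, 74 were higher and 17 lower, of which 73 and 15 were among the 101 and 28.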

How the data were processed

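The authors aligned the reads of 4 droplet libraries (10x Chromium 3′ v3) to mm10 with Cell Ranger 6.1.2 and aggregated them into 1 matrix, a step that by default subsamples reads so that libraries have a similar mean depth per barcode. The deposited values are UMI counts of 32285 genes in 41142 barcodes, and the suffix of a barcode gives its library. Following the study's filters, barcodes were kept, per library, with UMIs and detected genes each at least the mean minus 1 SD and a mitochondrial share of at most 10%, which left 8118, 8514, 7893 and 7464 cells. Doublets were not removed and no clustering was used.

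Counts of the cells of a class were summed per library and divided by the class total. Fold changes have exact conditional binomial intervals, levels exact Poisson intervals and shares Clopper-Pearson intervals (95%), all of which cover counting error only. At 166839268 to 200180473 UMIs per library, a gene with 0 counts could still have up to 3 counts, 0.0150 to 0.0180 CPM. No test between genotypes was made, since library numbers are tied to no labelled sample. The members and gene lists were chosen with earlier results of these data known.

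Named genes were all 14 rule genes, the 3 to 6 genes of a list with the largest fold in the library where it was smallest together with the gene of most UMIs, the 10 genes of each direction outside all lists by the same measure, and Srrm2. A gene of the kinetochore list that this rule names is not reported here. Gene groups that were used as checks are named by a few members, and Krt8, Krt18, Cald1, S100a6, Sdc4, Ttn, Malat1, Zbtb20, Lockd, Bub1b, Wee1, Cdk4, Pttg1 and the other members named with values below the limit were chosen after their values were seen. Promoters came from RefSeq for GRCm38.p6 and gene spans from a GENCODE annotation of the same build. Alternatives changed the filters, the classes, the score, the scaling, the count minimum and the fold limit, left out each library, took classes within bands of UMIs, or left out the cells highest in keratin and SRF targets; the last 2 were chosen after seeing the data. Scripts were tested on simulated counts with known changes. Python 3.11.15, numpy 2.4.6, scipy 1.17.1, pandas 2.3.3 and matplotlib 3.10.9 were used.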

Additional observations from a re-analysis of the deposited data

How the results depend on the processing

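Of the summary values under other settings, 75 stayed within 1.5 times the count or within the range of the libraries and 20 moved. The 75 include the summed sizes and UMI ratios with a library left out. Their median cannot leave the range of the libraries, so these outcomes were fixed in advance. The genes called higher, 101, became 50 against all other cells, 182 at a count minimum of 1, 406 at the lower fold limit tried and 25 at a fold limit of 2. The genes called lower, 28, became 14 against all other cells, 17 with rule genes weighted equally, 14 without the 2 rule genes of most UMIs, 17 with cells scored at 5000 UMIs, 59 at a count minimum of 50, 139 at 1, 129 at the lower fold limit and 3 at a fold limit of 2. The summed S genes, with a median log2 fold change of −0.26, were at −0.19 against all other cells. The ratio of UMIs per cell, 1.36, became 1.42 over all barcodes, 1.252 against all other cells, 1.32 with equal weights, 1.31 without those 2 genes, 1.33 at 5000 UMIs and 1.02 within bands of UMIs. Leaving out each library in turn gave 111 to 127 higher genes, 34 to 57 lower genes (57 without library 1), 0.28 to 0.54 for the other mitotic genes, −0.28 to −0.25 for the S genes and 1.35 to 1.36 for UMIs per cell. Of 2448 values of 136 named genes 2226 stayed within the range of the libraries, 211 moved outside it and 11 changed sign. The 136 include the rule genes, whose sign the choice of cells fixed, and called genes, picked for a fold of 1.5 or more. Few of these could change sign. The 11 values fell in 4 genes near 0: Dnmt3b (0.0101 over all barcodes, 0.0109 with the highest 20%, 0.0245 with equal weights, 0.0653 without 2 rule genes), Cdkn1a (0.0308 against all other cells, −0.318 to 0.0047 leaving out each library, 0.183 without keratin-high cells), H2afz (−0.154 to 0.0127 leaving out each library) and Klf4 (0.0866 within bands). Apart from stricter or looser limits, fewer libraries and matched depth, whose construction shows in the values, the cause was not tested. No paired analysis was possible because WT and hKO libraries could not be told apart, so their replicate numbers pair nothing; the 2 classes of cells were compared within each library throughout. Depth limits genes with few UMIs, such as Acta2 in libraries 1 and 2.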

Other observations

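Some transcripts on no list, chosen after their values were seen, were higher in the G2/M-high cells of all 4 libraries. Malat1, a nuclear long noncoding RNA and 1 of the most counted transcripts here, was at 5373, 5928, 5722 and 7250 CPM in the G2/M-high cells and at 3548, 3373, 3726 and 4121 in the lowest 50%. Its log2 fold changes ran from 0.60 to 0.82 and its call was lost, with the direction kept, over all barcodes, with the highest 20%, against all other cells, at 5000 UMIs, without cells above 2 times the median UMIs, with median-of-ratios scaling, as a mean over cells and at a fold limit of 2. Zbtb20, a zinc finger gene, was at 23.9, 13.3, 18.7 and 11.5 CPM against 13.6, 4.07, 11.3 and 3.58. Its log2 fold changes of 0.81, 1.71, 0.73 and 1.69 were larger in libraries 2 and 4, the reverse of the order seen for most mitotic genes. The call of Zbtb20 was lost when the score was set on one part of the UMIs and levels were read on the other, a setting with fewer UMIs per gene. Lockd, a long noncoding RNA whose annotated start lies 3578 bases beyond the end of Cdkn1b on chromosome 6, had log2 fold changes of 1.60, 1.04, 1.65 and 0.89, against 0.45, 0.58, 0.75 and 0.55 for Cdkn1b itself.

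Of the 53 higher genes on no list, 17 (32.1%) span more than 100 kb of the genome and the median span was 42.5 kb. Of all tested genes 11.7% span that much, with a median of 23.5 kb, and of the 48 higher genes on the mitotic lists or in the rule 1 did (2.08%). Of the 28 lower genes 1 did (3.57%). Some calls of genes on no list spanning more than 100 kb were lost under other settings. With levels read on UMIs not used for the score, where 8986 genes had enough UMIs against 10266, these were Srgap2, Csrnp3, Tnik, Mitf, St8sia1, Ccdc85a, Zbtb20, AW554918 and Diaph2. All of them but St8sia1 and Zbtb20 were also lost with cells scored at 5000 UMIs. The other such long genes kept their calls in both settings. Against all other cells, however, Tenm4, Bnc2, Ccdc18, Dnah8 and Scaper lost theirs, and Camk1d, Ppp1r9a and Zeb1 kept theirs. Tenm4 also lost its call within bands of similar UMIs. The shares above describe the called genes only, and whether they hold under these settings was not tested.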
